A study of Mus musculus with 6 samples.

Results

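Genes of the tendon and of the myotendinous junction, where tendon collagen anchors to the ends of muscle fibres, were followed in mouse quadriceps. The 8 genes Scx, Mkx, Tnmd, Fmod, Chad, Thbs4, Comp and Tnc were taken by their symbols from a table of 23314 genes, and all 8 were found there on 1 row each. The table came from RNA sequencing of quadriceps at 2 months of age in 2 groups of 3 libraries each, where the design text gives n = 4. K15SKO mice had the genotype Myogenin-Cre/+;K15F/F, in which a Cre recombinase driven by Myogenin deletes the floxed Klf15 gene in differentiating muscle. MyoCre mice had the genotype Myogenin-Cre/+ and carried the same Cre allele. Myogenin is a gene of muscle cells, so the Cre is aimed at muscle fibres and not at tendon cells. Nothing in the labels states that each library is its own animal. The p-values below therefore reflect the spread between libraries, which may be technical.

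Tendon is made by fibroblast-like cells called tenocytes, which lay down parallel collagen fibrils and are specified by the transcription factor scleraxis. Muscle fibres grip this matrix at the myotendinous junction through integrins, laminins and glycoproteins such as tenascin C and thrombospondin 4. Some of these matrix proteins are also made by fibroblasts and muscle cells elsewhere in muscle when it is injured or overloaded.

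Promoter sequences from RefSeq (build GRCm38.p6, 250 bases before to 50 after the start site) were matched for 5 of the 8 genes, Tnmd, Fmod, Chad, Thbs4 and Tnc. Those of Thbs4 and Tnc are shown because K15SKO and MyoCre did not overlap for these genes. That of Tnmd is shown because Tnmd is a known target of scleraxis for which the groups overlapped. Tnmd was above every MyoCre library in K15SKO 1 and 3 and within their range in K15SKO 2. Capitals mark CANNTG, the E-box core read by basic helix-loop-helix factors such as scleraxis, which reads the same on both strands. Each is written 5′ to 3′ on the strand of the gene, at chr13:92794769-92795068 (minus strand), chr4:64046966-64047265 (minus strand) and chrX:133850758-133851057 (plus strand).
Thbs4: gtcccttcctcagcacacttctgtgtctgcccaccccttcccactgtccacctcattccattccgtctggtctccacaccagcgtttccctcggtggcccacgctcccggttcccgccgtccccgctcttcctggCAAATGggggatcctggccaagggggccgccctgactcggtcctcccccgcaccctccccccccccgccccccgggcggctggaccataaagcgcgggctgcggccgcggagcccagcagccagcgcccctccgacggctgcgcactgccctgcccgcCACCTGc
Tnc: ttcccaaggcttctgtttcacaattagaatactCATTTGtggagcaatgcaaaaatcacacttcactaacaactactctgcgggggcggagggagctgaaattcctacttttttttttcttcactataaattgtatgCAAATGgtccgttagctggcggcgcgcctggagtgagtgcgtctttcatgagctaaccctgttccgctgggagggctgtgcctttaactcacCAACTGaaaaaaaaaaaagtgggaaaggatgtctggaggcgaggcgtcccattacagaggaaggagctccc
Tnmd: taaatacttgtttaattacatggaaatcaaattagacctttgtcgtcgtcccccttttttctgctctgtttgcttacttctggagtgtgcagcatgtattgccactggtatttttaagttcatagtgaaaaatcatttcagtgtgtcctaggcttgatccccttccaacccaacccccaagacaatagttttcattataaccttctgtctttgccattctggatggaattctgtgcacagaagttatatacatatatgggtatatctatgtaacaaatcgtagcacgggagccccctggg
The windows held 2 matches in Thbs4, 3 in Tnc and 0 in Tnmd, and Fmod and Chad held 1 each. A second RefSeq window of Tnc, whose start site lies 79 bases inside the gene, held 2. Of 32851 promoter windows of this length, 72.3% held at least 1 match, 39.6% at least 2 and 17.6% at least 3. The letters CACCC, the core read by Krüppel-like factors, searched on both strands as CACCC or GGGTG, were found 2 times in Thbs4, 0 times in Tnc, 0 times in Tnmd, 1 time in Fmod and 0 times in Chad, with no overlap with CANNTG. At least 1 such match was held by 57.5% of all windows. A match describes these letters and is not a binding site.

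Levels are given in FPKM, in which the fragments assigned to a gene are divided by its length and by the size of the library, so that levels of different genes can be set side by side. Values of a group are listed in the order of its libraries 1 to 3. Klf15 itself stood at 2.22, 21.7 and 5.32 FPKM in the K15SKO libraries, against 35.2, 28.4 and 30.5 FPKM in the MyoCre libraries, a log2 difference of −2.06 (SE 0.66, limma adjusted p = 0.273). The library labelled K15SKO 2 was thus nearer to MyoCre than to K15SKO 1 and 3 in the targeted transcript. The summed level of 7 liver genes was 57.5, 4667 and 10.3 FPKM in the K15SKO libraries, against 3.28, 0.760 and 1.01 FPKM in the MyoCre libraries. Over all genes tested, K15SKO 3 correlated more closely with the MyoCre libraries (Pearson r of 0.968 to 0.975) than with K15SKO 1 and 2 (0.880 to 0.942). Read totals were not used here, and depth relative to MyoCre 1, read from the steps between values under 0.1 FPKM, was 0.779, 1.56 and 0.895 in K15SKO 1 to 3 and 1.07 and 1.32 in MyoCre 2 and 3. Since absolute depth is unknown, values carry no counting interval. For 8 muscle fibre genes, Des, Mb and Myl1 among them, the summed level ran from 28299 to 32471 FPKM over the MyoCre libraries. K15SKO 1 and K15SKO 2 lay below that range, at 20522.5 FPKM and 19423 FPKM, and K15SKO 3 lay above it, at 33334 FPKM. Single genes of this list went both ways without overlap, Des being higher in K15SKO and Myl1 lower.

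All 8 genes are protein-coding. On GRCm38, Scx (plus strand) spans 76457452 to 76459458 of chromosome 15 in 2 exons. Scx lies wholly inside Bop1, a ribosome assembly gene on the minus strand from 76452989 to 76477277. Mkx lies on chromosome 18 from 6934518 to 7004780 (minus strand), Tnmd on chromosome X from 133850980 to 133865577 (plus strand) and Fmod on chromosome 1 from 134037254 to 134048277 (plus strand). Chad lies on chromosome 11 from 94565047 to 94569127 (plus strand), inside Acsf2 on the minus strand. Thbs4 lies on chromosome 13 from 92751590 to 92794818 (minus strand), Comp on chromosome 8 from 70373558 to 70382066 (plus strand) and Tnc on chromosome 4 from 63959785 to 64047015 (minus strand). The sources used here do not give whether counting used strand, so reads of Scx and Bop1, of Chad and Acsf2, and of Tnc and the overlapping 8030451A03Rik cannot be told apart with certainty. Mkx overlaps AC148004.2 on its own strand, so counting by strand would not separate them. Bop1 stood at 15.4, 12.4 and 12.5 FPKM in the K15SKO libraries, against 11.3, 10.7 and 11.0 FPKM in the MyoCre libraries. Like Scx, Bop1 was above every MyoCre library in each K15SKO library and highest in K15SKO 1. Its ratio of group means was 1.22, against 2.99 for Scx. Whether reads of Bop1 add to the Scx values was not tested. Acsf2 stood at 0.542, 2.45 and 0.592 FPKM in the K15SKO libraries, against 1.24, 1.37 and 0.321 FPKM in the MyoCre libraries. The order of the 6 libraries for Acsf2 was not that for Chad, which was highest in K15SKO 1.

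**Figure D1:**
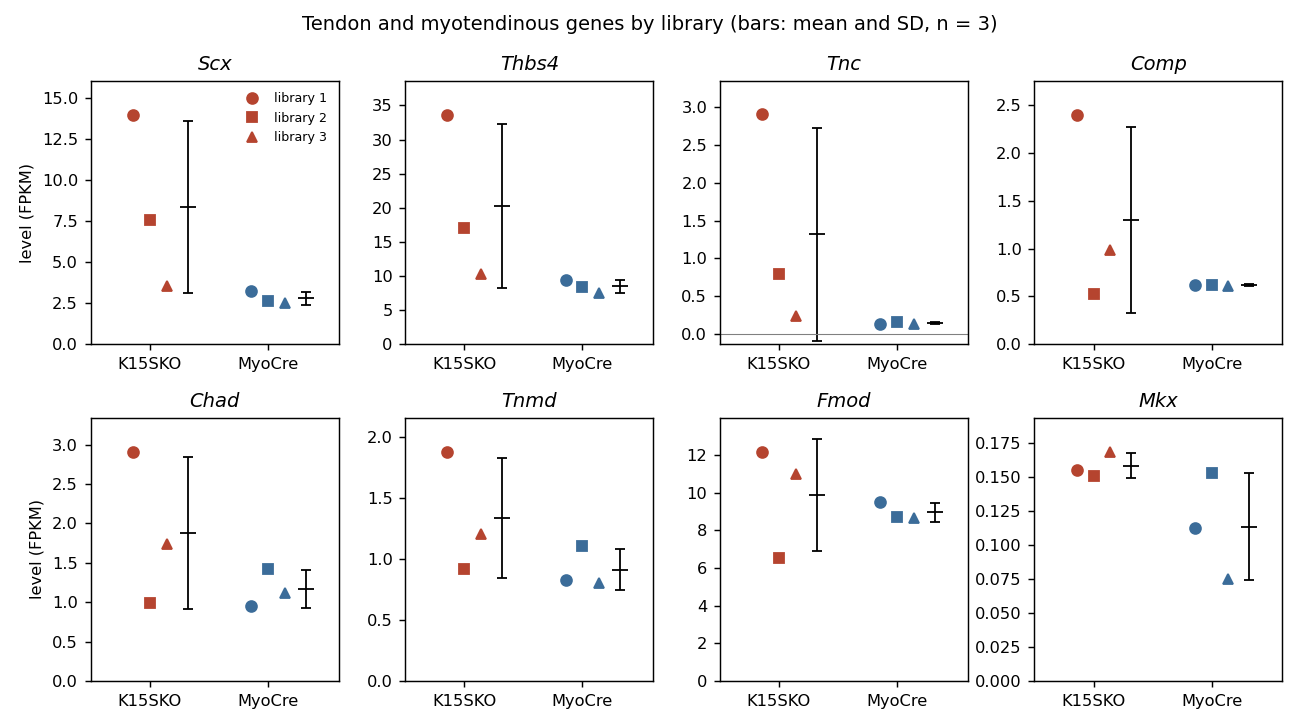
Level (FPKM, linear axis) of each of the 8 genes in the 3 K15SKO libraries (red) and the 3 MyoCre libraries (blue), with the symbol giving the library number and the bar the mean and SD of 3 libraries; the SD bar of Tnc in K15SKO reaches below 0. Scx, Thbs4 and Tnc had 3 K15SKO libraries above all 3 MyoCre libraries, whereas Comp, Chad, Tnmd and Fmod had K15SKO 2 within or below the MyoCre range.

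The comparison of K15SKO with MyoCre asks what quadriceps transcripts do when Klf15 is deleted in muscle. Scx, Thbs4 and Tnc had higher values in 3 of 3 K15SKO libraries than in any MyoCre library, with group means of 2.99, 2.40 and 9.03 times those of MyoCre. Comp, Chad, Tnmd and Fmod were above every MyoCre library in K15SKO 1 and 3 and not in K15SKO 2. Mkx stood at 0.168 FPKM or less in every library. None of these differences passed the test: limma called 0 of the 5 genes tested at an adjusted p of 0.05, where 0.0517% of 11607 genes were called, 6 in number. At an unadjusted p under 0.05, Scx and Thbs4 were higher, against 8.43% of genes tested, and 0 were lower, against 8.12%. In whole muscle, a different number of cells of a type and a different amount of RNA per cell cannot be told apart.

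Counting all 8 genes, 3 did not overlap between the groups and were higher in K15SKO, against 10.1% of the 23314 genes in the table, and 0 were lower, against 7.68%. K15SKO 1 was above all 3 MyoCre libraries for 8 of 8 genes, against 36.6% of all genes. K15SKO 3 was likewise above them for 8 of 8, against 29.9% of all genes, although the differences in K15SKO 3 were small. K15SKO 2 was above them for 3 of 8, against 36.8%, and below them all for 2, Fmod and Comp. Fitted without a filter on low values, limma called 0 of all 8 genes, where 0.0129% of 23314 were called. In that fit the median log2 difference of the 8 genes was 0.39, against 0.01 over all 23314 genes. The median of the 8 genes against the MyoCre mean was 0.96, 0.03 and 0.26 on the log2(FPKM + 1) scale in K15SKO 1 to 3. K15SKO 1 was the highest of the 6 libraries for 7 of the 8 genes, and K15SKO 3 for Mkx. Without K15SKO 2 the groups did not overlap for 8 of 8 genes, against 14.9% of all genes higher, and without MyoCre 2 for 5 of 8, against 13.5%.

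**Figure D2:**
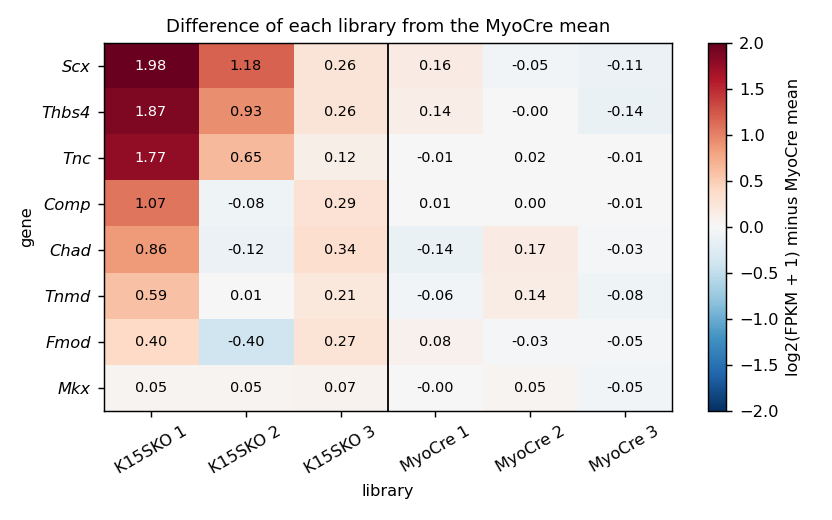
Difference of each library (columns) from the MyoCre mean for each of the 8 genes (rows), on the log2(FPKM + 1) scale, red above and blue below the mean. Scx, Thbs4 and Tnc are above the mean in all 3 K15SKO libraries (1.98, 1.18 and 0.26 for Scx), whereas Comp, Chad, Tnmd and Fmod are near or below 0 in K15SKO 2 alone among the K15SKO libraries.

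Among the regulators, Scx encodes scleraxis, the basic helix-loop-helix factor that marks tendon progenitors and tenocytes. Scx stood at 14.0, 7.57 and 3.54 FPKM in the K15SKO libraries, against 3.24, 2.66 and 2.50 FPKM in the MyoCre libraries. The lowest K15SKO library was just above the highest MyoCre library, and the MyoCre libraries lay close together. The mean was 8.36 ± 5.26 FPKM in K15SKO and 2.80 ± 0.389 FPKM in MyoCre (SD, n = 3 each). The log2 difference of Scx was 1.14 (SE 0.41, 95% interval 0.17 to 2.12, limma adjusted p = 0.281), and the SD within K15SKO was thus close to the difference of the means. The 3 K15SKO libraries were at 4.99, 2.70 and 1.27 times the MyoCre mean of Scx. Leaving out 1 library moved the log2 difference of Scx between 0.72 (without K15SKO 1, limma adjusted p = 0.568) and 1.58 (without K15SKO 3, limma adjusted p = 0.0154). Scx and Thbs4 passed the test without K15SKO 3, a fit in which 24.2% of 11652 genes were called, and with array weights, where 20.7% of 11607 were.

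Mkx encodes Mohawk, a homeobox factor that keeps tenocytes making collagen. Mkx was listed at 0.155, 0.150 and 0.168 FPKM in the K15SKO libraries, against 0.112, 0.153 and 0.0747 FPKM in the MyoCre libraries. The groups overlapped, since MyoCre 2 was above K15SKO 2. With a mean of 0.136 FPKM over the 6 libraries, Mkx was not tested with the filter on low values. Without that filter its log2 difference was 0.06 (SE 0.03, 95% interval −0.03 to 0.14, limma adjusted p = 0.516). At this level the precision of single values is unknown.

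Tnmd encodes tenomodulin, a transmembrane glycoprotein of mature tendon whose gene is switched on by scleraxis. Tnmd stood at 1.88, 0.921 and 1.21 FPKM in the K15SKO libraries, against 0.828, 1.10 and 0.806 FPKM in the MyoCre libraries. K15SKO 1 and 3 were above all MyoCre libraries, and K15SKO 2 lay between MyoCre 1 and MyoCre 2. Without K15SKO 1, Tnmd no longer reached the filter. The log2 difference of Tnmd was 0.27 (SE 0.20, 95% interval −0.22 to 0.76, limma adjusted p = 0.468). Tnmd was below 1 FPKM on average in MyoCre and entered the test through its K15SKO values. K15SKO 2, which had the second highest Scx level of the 6 libraries, was at 1.01 times the MyoCre mean of Tnmd.

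The leucine-rich proteins Fmod and Chad bind collagen. Fmod encodes fibromodulin, a small leucine-rich proteoglycan that steers the thickness of collagen fibrils in tendon. Fmod stood at 12.2, 6.53 and 11.0 FPKM in the K15SKO libraries, against 9.52, 8.71 and 8.63 FPKM in the MyoCre libraries. K15SKO 2 was the lowest of the 6 libraries and K15SKO 1 and 3 were the highest, so the groups overlapped around a mean of 9.90 ± 2.98 FPKM in K15SKO and 8.95 ± 0.495 FPKM in MyoCre (SD, n = 3 each). The log2 difference of Fmod was 0.09 (SE 0.21, 95% interval −0.42 to 0.61, limma adjusted p = 0.813). Its sign turned without K15SKO 1, to −0.065 (limma adjusted p = 0.919), and without K15SKO 2 it was 0.34 (limma adjusted p = 0.416).

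Chad encodes chondroadherin, a leucine-rich protein first described in cartilage that binds collagen and integrins. Chad stood at 2.91, 0.988 and 1.73 FPKM in the K15SKO libraries, against 0.955, 1.42 and 1.11 FPKM in the MyoCre libraries. K15SKO 1 and 3 were above all MyoCre libraries and K15SKO 2 was within their range. The log2 difference of Chad was 0.36 (SE 0.26, 95% interval −0.28 to 1.00, limma adjusted p = 0.461). It was 0.11 without K15SKO 1 (limma adjusted p = 0.855) and 0.60 without K15SKO 2 (limma adjusted p = 0.403).

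Thbs4 and Comp encode thrombospondin 4 and cartilage oligomeric matrix protein, secreted thrombospondins that form pentamers and bind collagen and calcium. Thrombospondin 4 is enriched at the myotendinous junction, and cartilage oligomeric matrix protein is abundant in load-bearing tendon and cartilage. Thbs4 stood at 33.5, 17.0 and 10.3 FPKM in the K15SKO libraries, against 9.40, 8.43 and 7.56 FPKM in the MyoCre libraries. The groups did not overlap, and K15SKO 3 was 1.21 times the MyoCre mean where K15SKO 1 was 3.96 times it. The mean was 20.3 ± 12 FPKM in K15SKO and 8.46 ± 0.921 FPKM in MyoCre (SD, n = 3 each). The log2 difference of Thbs4 was 1.02 (SE 0.38, 95% interval 0.10 to 1.94, limma adjusted p = 0.288). It was 0.59 without K15SKO 1 (limma adjusted p = 0.568) and 1.40 without K15SKO 3 (limma adjusted p = 0.0242).

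Comp was at 2.39, 0.526 and 0.981 FPKM in the K15SKO libraries, against 0.624, 0.619 and 0.610 FPKM in the MyoCre libraries. The 3 MyoCre libraries were nearly equal, with an SD of 0.00751 FPKM. K15SKO 1 and 3 lay above them and K15SKO 2 below. Without the filter, which Comp did not pass at a mean of 0.959 FPKM, its log2 difference was 0.43 (SE 0.30, 95% interval −0.31 to 1.16, limma adjusted p = 0.572).

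Tnc encodes tenascin C, a large glycoprotein of the adult myotendinous junction that is also laid down in regenerating muscle. Tnc stood at 2.91, 0.799 and 0.243 FPKM in the K15SKO libraries, against 0.140, 0.158 and 0.140 FPKM in the MyoCre libraries. The groups did not overlap, and the 3 K15SKO libraries were at 19.9, 5.48 and 1.67 times the MyoCre mean. With the highest ratio of group means of the 8 genes, at 9.03, Tnc was nonetheless too low to be tested with the filter, at a mean of 0.731 FPKM. Without the filter the log2 difference of Tnc was 0.85 (SE 0.41, 95% interval −0.17 to 1.86, limma adjusted p = 0.464). That scale, log2(FPKM + 1), understates the change of genes at such levels.

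**Figure D3:**
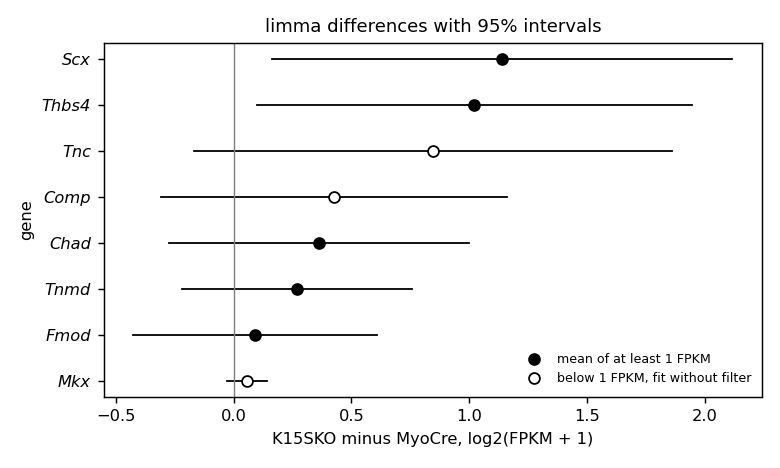
Log2 difference K15SKO minus MyoCre on the log2(FPKM + 1) scale (points) with its 95% interval (lines) for the 8 genes; filled points are genes with a mean of at least 1 FPKM, open points genes below it, fitted without a filter. The intervals of Scx (0.17 to 2.12) and Thbs4 (0.10 to 1.94) lie above 0 before adjustment, and the other 6 include 0.

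The order of mean levels differed between the groups for Thbs4 and Fmod and for Tnc and Comp, while Mkx came last in both. The ranges of Thbs4 and Fmod overlapped in both groups, and those of Tnc and Comp overlapped in K15SKO. In K15SKO, Thbs4 had the highest mean, followed by Fmod and Scx at 9.90 and 8.36 FPKM, with overlapping ranges for each neighbouring pair. Scx was set apart from Chad, Tnmd, Tnc and Comp, whose K15SKO means ran from 1.88 down to 1.30 FPKM with overlapping ranges, and Mkx lay below them all. In MyoCre, Fmod and Thbs4 overlapped at 8.95 and 8.46 FPKM, Scx followed apart from both at 2.80 FPKM, and Chad and Tnmd overlapped below it. Comp lay apart at 0.618 FPKM, and Tnc and Mkx came last at 0.146 and 0.113 FPKM, Tnc apart from Comp and overlapping with Mkx. Tnc stood at the 63.4, 47.2 and 41.0 percentile of all 23314 genes in K15SKO 1 to 3, against 36.7, 37.0 and 36.6 in MyoCre 1 to 3. Thbs4 stood at the 92.0, 85.7 and 79.8 percentile in K15SKO, against 79.3, 77.5 and 75.5 in MyoCre.

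Among genes outside the 8, those whose 6 values lay nearest to each tested gene were found by the root mean square difference of their log2(FPKM + 1) deviations from the MyoCre mean. For Scx they were Mgp, which encodes the calcification inhibitor matrix Gla protein, Ankrd13a and Cdkn1c, a cell cycle inhibitor, at 0.06, 0.12 and 0.12 log2 units over 6 libraries. Mgp was also nearest to Thbs4, at 0.09, followed by Junb and Lmna, which encodes lamin A, at 0.14 and 0.15. Mgp stood at 117.7, 64.7 and 34.8 FPKM in the K15SKO libraries, against 34.1, 29.4 and 25.2 FPKM in the MyoCre libraries (limma adjusted p = 0.288). The groups did not overlap for Mgp, with K15SKO 3 at 34.8 FPKM just above MyoCre 1 at 34.1 FPKM. For Tnmd the nearest were Zbed3, Ino80e and Rps27rt at 0.06 each. For Fmod they were Rcan2, Uqcr10 and Tmem259 at 0.08, 0.08 and 0.10, and for Chad Cxx1c, Slc43a2 and Ndn at 0.10, 0.12 and 0.14.

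Other genes of tendon matrix were read from lists that leave out the 8 genes. Of 20 further genes of tendon fibroblasts and fibrillar matrix, 15 were tested and 0 passed in either direction. At an unadjusted p under 0.05, 3 were higher and 0 lower. Over all genes tested, 8.43% were higher and 8.12% lower, shares that also apply to the lists below. The median log2 difference of the list was 0.70, against −0.02 over all genes tested. Cthrc1 entered the test through its K15SKO values; over all 20 genes without the filter the median was 0.59, against 0.01 over all genes. Cilp, a matrix protein of cartilage and tendon, stood at 26.4, 18.6 and 6.76 FPKM in the K15SKO libraries, against 6.52, 3.81 and 4.52 FPKM in the MyoCre libraries (limma adjusted p = 0.272). Egr1, a growth factor-induced transcription factor that promotes tendon gene expression, stood at 8.61, 6.65 and 2.60 FPKM in K15SKO, against 1.75, 1.34 and 2.11 FPKM in MyoCre (limma adjusted p = 0.272). For both, the K15SKO libraries were above every MyoCre library and K15SKO 3 was the nearest to them. Cpxm2, a carboxypeptidase-like protein, stood at 3.29, 2.55 and 2.23 FPKM in K15SKO, against 1.68, 1.12 and 1.51 FPKM in MyoCre. Col1a1, a chain of type I collagen, overlapped between the groups, at 55.6, 19.6 and 5.89 FPKM in K15SKO and 6.85, 5.56 and 5.51 FPKM in MyoCre. Relative to MyoCre the list had a median of 1.61, 0.58 and −0.01 in K15SKO 1 to 3.

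Small leucine-rich proteoglycans did not go one way. Of 12, 8 were tested and 0 passed; 1 was higher and 3 were lower when p was left unadjusted, with a median log2 difference of −0.20. Bgn, which encodes biglycan, stood at 86.4, 48.7 and 14.5 FPKM in the K15SKO libraries, against 14.2, 14.4 and 10.8 FPKM in the MyoCre libraries (limma adjusted p = 0.291). Dcn, which encodes decorin, stood at 89.6, 97.7 and 121 FPKM in K15SKO, against 147, 149 and 131 FPKM in MyoCre (limma adjusted p = 0.272). Every K15SKO library was above the MyoCre libraries for Bgn and below them for Dcn. Prelp was likewise below them, at 5.65, 4.56 and 5.0 FPKM in K15SKO against 9.02, 9.55 and 6.10 FPKM in MyoCre. Ogn, which encodes mimecan, overlapped, with a log2 difference of −0.37 (limma adjusted p = 0.302).

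Of 8 other thrombospondins, tenascins and matrilins, 4 were tested and 0 passed. Their log2 differences were 0.60 for Thbs1, 0.43 for Thbs3, 0.27 for Thbs2 and −0.19 for Tnxb, which encodes tenascin X, with limma adjusted p from 0.352 to 0.554. The groups overlapped for each of them, and Thbs1 and Thbs3 entered the test through their K15SKO values. Without K15SKO 1 the log2 difference of Thbs2 was −0.0096.

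On the muscle fibre side of the junction, 16 of 16 listed genes were tested and 0 passed, with 4 higher and 0 lower at an unadjusted p under 0.05 and a median log2 difference of −0.01. The 4 were Itga7, the integrin chain that binds laminin there, Ankrd1, a stretch-induced ankyrin repeat protein, and Ilk and Tln1, which encode the integrin-linked kinase and talin 1. Itga7 stood at 66.9, 54.0 and 24.0 FPKM in the K15SKO libraries, against 20.5, 18.8 and 20.7 FPKM in the MyoCre libraries (limma adjusted p = 0.273). Ankrd1 stood at 135.8, 94.6 and 11.1 FPKM in K15SKO, against 6.53, 4.84 and 9.11 FPKM in MyoCre (limma adjusted p = 0.272). The log2 difference was 0.43 for Ilk (limma adjusted p = 0.272) and 0.44 for Tln1 (limma adjusted p = 0.279). Of all 16 genes, these 4, picked by their p, were the ones higher without overlap, against 10.1% of all genes. Col22a1, the collagen chain that defines the junction and that was singled out after its values were seen, stood at 1.79, 1.25 and 2.92 FPKM in K15SKO, against 2.72, 2.24 and 3.28 FPKM in MyoCre (limma adjusted p = 0.418). It overlapped between the groups, and its lowest values were in K15SKO 1 and 2, where Thbs4 and Tnc were highest.

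Transforming growth factor beta, whose signal runs through Smad2 and Smad3, induces Scx in tendon cells. Of 15 pathway genes and matrix targets in the table, 14 were tested and 0 passed, with 1 higher and 4 lower at an unadjusted p under 0.05 and a median log2 difference of −0.15. Postn, 1 of the 14, entered the test through its K15SKO values and was not among those higher or lower. Smad3 stood at 16.1, 17.2 and 17.7 FPKM in the K15SKO libraries, against 25.1, 25.5 and 29.3 FPKM in the MyoCre libraries (log2 difference −0.62, SE 0.10, limma adjusted p = 0.229). The groups were well apart and the K15SKO libraries lay close together, unlike those of Scx. The ligand gene Tgfb2 and the receptor gene Tgfbr3 were also lower in 3 of 3 libraries, by −0.32 on the log2 scale for Tgfb2 (limma adjusted p = 0.272) and −0.48 for Tgfbr3 (limma adjusted p = 0.269). Of 14 genes of collagen crosslinking and processing, 11 were tested and 0 passed, with 0 higher and 1 lower at an unadjusted p under 0.05. That gene, P4ha1, a prolyl hydroxylase subunit, stood at 12.6, 11.9 and 15.1 FPKM in K15SKO against 17.2, 18.0 and 24.2 FPKM in MyoCre (limma adjusted p = 0.272). Loxl2, Lox and Bmp1 had log2 differences of 0.72, 0.56 and 0.31, and the groups overlapped.

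**Figure D4:**
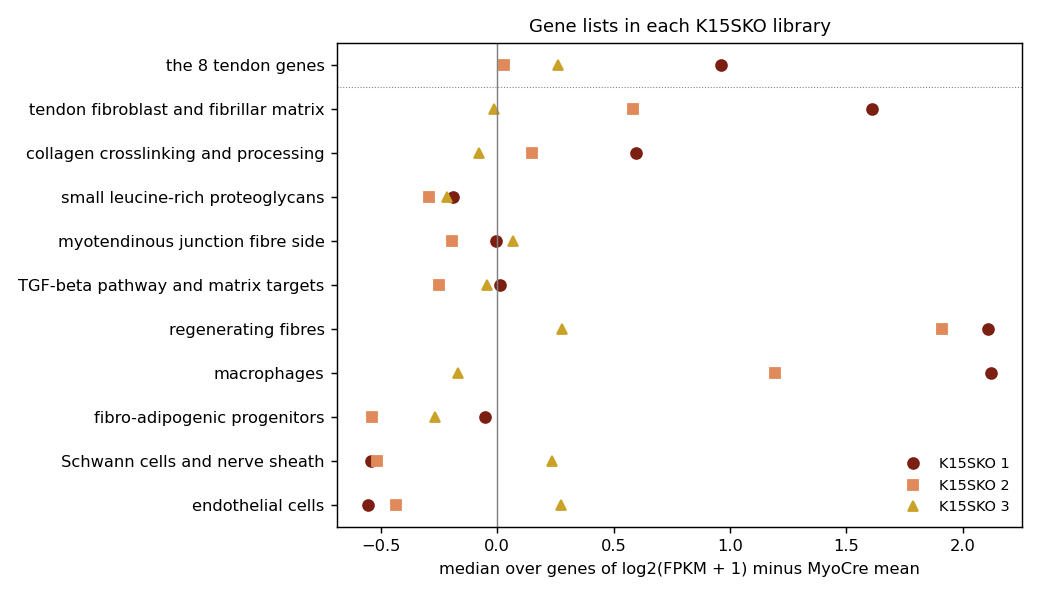
Median over the genes of each list of the difference from the MyoCre mean, on the log2(FPKM + 1) scale, in K15SKO 1 (circles), 2 (squares) and 3 (triangles), for all 8 tendon genes and for the tested genes of 10 other lists. The tendon fibroblast, macrophage and regenerating fibre lists are highest in K15SKO 1 (1.61, 2.12 and 2.11), and the 8 tendon genes have their lowest median, 0.03, in K15SKO 2.

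Markers of other cells moved with Scx, Thbs4 and Tnc across the K15SKO libraries. The summed level of 10 macrophage genes was 341, 191 and 40.1 FPKM in K15SKO 1 to 3, against 43.2 to 52.2 FPKM in MyoCre, so K15SKO 3 was below the MyoCre libraries. Of its 8 tested genes, 1 was higher at an unadjusted p under 0.05 and 0 passed. The summed level of 8 genes of regenerating or denervated fibres was 119, 91.4 and 27.1 FPKM in K15SKO 1 to 3, against 18.6 to 29.4 FPKM in MyoCre, and 0 of 8 passed. For 7 of the 8, every K15SKO library was above every MyoCre library, against 10.1% of the 23314 genes in the table. Of these 7 genes, Myh3, Myh8 and Chrng averaged below 1 FPKM in MyoCre and entered the test through their K15SKO values. No count at an unadjusted p is therefore given for this list. Myog was at 31.9, 27.3 and 3.90 FPKM in K15SKO, against 2.36, 2.20 and 1.84 FPKM in MyoCre (limma adjusted p = 0.272). Myod1, the gene of the 8 that overlapped, was at 11.9, 7.12 and 9.35 FPKM in K15SKO, against 17.7, 6.99 and 6.75 FPKM in MyoCre. The part of these cells or states in the Scx, Thbs4 and Tnc values was not tested.

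Markers of other cells that express tendon genes had mixed orders across the K15SKO libraries. Together 9 cartilage genes stood at 1.73, 1.36 and 3.37 FPKM in K15SKO 1 to 3 and 2.01 to 2.11 FPKM in MyoCre. Cytl1 made up most of this sum in K15SKO 3, at 2.47 FPKM. In K15SKO 1 and 2 Cytl1 stood at 0.668 and 0.544 FPKM, below Sox9. Sox9 had the order of Scx within K15SKO only, falling from 0.810 over 0.638 to 0.360 FPKM from library 1 to library 3. The MyoCre values of Sox9 were 0.419, 0.407 and 0.426 FPKM. K15SKO 3 was thus below every MyoCre library for Sox9, whereas it was above every one for Scx. Acan and Col2a1, which define cartilage, were at most 0.00946 and 0.138 FPKM. In K15SKO 1, where Comp and Chad were highest, Acan was at 0 and Col2a1 at its highest. Together 7 bone genes stood at 5.18, 4.26 and 5.37 FPKM in K15SKO 1 to 3, against 3.42 to 3.54 FPKM in MyoCre. Of them, Bglap2, Ibsp and Sp7 were at 0 in every MyoCre library and highest in K15SKO 1, at 0.172, 0.0220 and 0.0867 FPKM, while Dmp1 and Phex, singled out with Cytl1, Sox9 and Lum after their values were seen, were highest in K15SKO 2 and Alpl in K15SKO 3. The summed level of 10 genes of fibro-adipogenic progenitors, the resident connective tissue cells of muscle, was 365, 313 and 428 FPKM in K15SKO 1 to 3, against 511 to 588 FPKM in MyoCre. Of its 9 tested genes 0 passed and 3 were lower with an unadjusted p below 0.05, Gsn (log2 difference −0.98, limma adjusted p = 0.250) and Pi16 (−0.83, limma adjusted p = 0.254) among them. Dcn and Lum stand in both this list and that of the proteoglycans, and Lum was higher in K15SKO 1 and 2 (25.1 FPKM each) than in K15SKO 3 (8.31 FPKM). Of 7 adipocyte genes tested, 0 passed. Of these 7, 6 were lower in K15SKO without overlap, against 7.68% of all genes. Plin1, 1 of these 6, entered the test through its MyoCre values, so no count at an unadjusted p is given for this list.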

How the data were processed

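RNA was sequenced in 3 K15SKO and 3 MyoCre quadriceps libraries, extracted with a Roche column kit per the labels' protocols. Per the submitters' processing notes, the tools were STAR, Cufflinks and Cuffdiff, of versions not stated here, with mm10 as the build. The deposited file is 1 matrix of FPKM made by the authors, with 1 column per library. The header does not name the unit, which was taken from these tools and from the values. FPKM keeps no counts, so counting error cannot be weighed. Columns were matched to samples through the description field, and 0 were left over. The 11607 genes whose mean reached 1 FPKM entered limma 3.58.1 (R 4.3.3) as log2(FPKM + 1) (eBayes with trend, two-sided, Benjamini-Hochberg over all genes tested, threshold 0.05); scripts were tested on simulated data. Coordinates came from GENCODE M21 on GRCm38, the mm10 assembly, with IDs matched without version for 23193 of 23314. Itgam, on 2 rows, was read from its first. Python 3.11.15, pandas 2.3.3 and matplotlib 3.10.9 made tables and plots.

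The 8 genes and the lists were chosen with earlier results of these data known. Named were Klf15, the 8 genes, up to 4 genes per list with the smallest p and the 3 nearest genes per tested gene. The alternatives changed the pseudocount (0.1, 0.5), the filter (none, or a minimum mean of 5 FPKM), the scaling (median-of-ratios, quantile) and the variance model (no trend, robust, array weights). Others added the replicate block, dropped genes at 0 in a whole group, or left out each library in turn. The adipocyte, endothelial, smooth muscle and Schwann cell lists had 0 genes past the adjusted threshold. Their medians were −2.57, −0.25, −0.13 and −0.34 on the log2 scale. Some listed genes are not reported here by name.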

Additional observations from a re-analysis of the deposited data

How the results depend on the processing

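The call of 0 of the 5 tested tendon genes held in 15 of the 17 alternatives. Scx and Thbs4, 2 genes, were called with array weights (log2 differences 1.27 and 1.08) and without K15SKO 3 (1.58 and 1.40), where the count of all genes called was 2398 and 2815 against 6. Over the fits that left out 1 library it ran from 3 to 2815 for all genes and from 0 to 2 for the tendon genes. All genes called numbered 3 with no filter, 3 with the replicate block and 0 with genes at 0 in a whole group left out, where limma gave 1930 at an unadjusted p under 0.05. The groups did not overlap for 3 to 8 of the 8 genes as each library was left out: 8 without K15SKO 2 (14.9% of all genes higher) and 5 without MyoCre 2 (13.5%). The sign of the log2 difference turned with array weights for Fmod (-0.16), Rcan2 (-0.087), Tmem259 (-0.10), Mb (-0.11) and Uqcr10 (-0.20), and with quantile scaling for Uqcr10 (-0.046). It also turned as each library was left out, with a range of -0.065 to 0.34 for Fmod, -0.0096 to 0.45 for Thbs2, -0.18 to 0.29 for Acsf2, -0.53 to 0.054 for Cytl1, -0.039 to 0.23 for Tmem259 and -0.091 to 0.24 for Uqcr10. The cause was not tested. Same-numbered libraries correlated in their deviations at 0.00240 to 0.0942, and 5 of 6 libraries correlated best with their own number. Deviations were taken from the mean of each group of 3 libraries, which ties these correlations to one another. Whether the numbers pair the libraries cannot be decided from them. Depth is unknown, which limits Mkx, Tnc and Comp.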

Other observations

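Further matrix genes, singled out after their values were seen, had their highest levels in K15SKO 1. Prg4, which encodes the joint and tendon lubricant lubricin, stood at 29.3, 3.27 and 2.08 FPKM in the K15SKO libraries, against 1.45, 1.47 and 1.11 FPKM in the MyoCre libraries (limma adjusted p = 0.337). Cthrc1, a secreted protein of activated fibroblasts, was listed at 9.25, 0.288 and 0.0460 FPKM in K15SKO, against 0, 0 and 0.0313 FPKM in MyoCre. Postn, which encodes periostin, stood at 57.6, 16.9 and 0.772 FPKM in K15SKO, against 0.640, 1.17 and 0.745 FPKM in MyoCre (limma adjusted p = 0.308). Postn averaged 0.853 FPKM in MyoCre and entered the test through its K15SKO values. The groups overlapped for Postn, since K15SKO 3 was within the MyoCre range.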
